A study of Mus musculus with 6 samples.

Results

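Arginine is the shared substrate of 2 enzymes that macrophages and other myeloid cells can switch on. Arginase splits it into ornithine and urea, and inducible nitric oxide synthase turns it into nitric oxide and citrulline. The 10 genes described here cover that fork and its surroundings: the arginases Arg1 and Arg2, the inducible synthase Nos2, the arginine importers Slc7a1 and Slc7a2, the citrulline recycling enzymes Ass1 and Asl, and the polyamine genes Odc1, Srm and Sms. They were chosen by name, and all 10 of 10 were found among the 18437 genes listed. In tumours, arginase in myeloid cells is known for using up the arginine that T cells need, and nitric oxide for its part in macrophage killing. Ornithine made by arginase feeds the polyamines putrescine, spermidine and spermine, which growing cells require.

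The specimens were tongue tumours of C57BL/6 mice injected with 4MOSC1, a murine oral squamous cell carcinoma line. The control group received the line labelled 4MOSC1-con (3 libraries), and the LIGHT group received the same line made to overexpress LIGHT, a TNF family ligand whose gene is Tnfsf14 (3 libraries). The labels give no age, no time after injection and no vector or promoter for LIGHT, and they do not say whether the line was 1 clone or whether animals were pooled. Nothing in them ties libraries to separate mice, so all p-values refer to variation among these samples, which may be technical.

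Values are TPM, transcript abundances given as a share of all transcripts and corrected for gene length, so levels of different genes can be compared within a library. TPM keeps no sequencing depth, and the depth behind each value is unknown. Tnfsf14 was at 0.53 to 0.79 TPM in control and 23.9 to 26.2 TPM in LIGHT libraries, as labelled. Between 12713 and 13271 genes reached 1 TPM in a library. Differences were tested with limma on log2(TPM + 1) over 13167 genes, and "rose" or "fell" means an adjusted p under 0.05 over all of them. Because these are whole tumours, fewer cells of a type and less RNA per cell cannot be told apart.

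Of the 10 genes, 3 rose (Nos2, Slc7a2 and Sms), 3 fell (Arg1, Slc7a1 and Srm) and 4 did not pass the test (Arg2, Ass1, Asl and Odc1). Over all tested genes 17.7% rose and 5.41% fell, 23.1% in all. All 10 genes were at 1 TPM or more in every library, the lowest value being 2.35 TPM, so none was tested only because of a rise. Of the 10 genes, the LIGHT libraries lay wholly outside the control libraries in the 6 called ones, 3 above and 3 below, and overlapped in the other 4. Among all tested genes the LIGHT libraries lay wholly above in 29.6% and wholly below in 11.6%, 41.2% in all. Opposite calls were made for Arg1 and Nos2, for the importers Slc7a1 and Slc7a2, and for the polyamine synthases Srm and Sms.

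**Figure D1:**
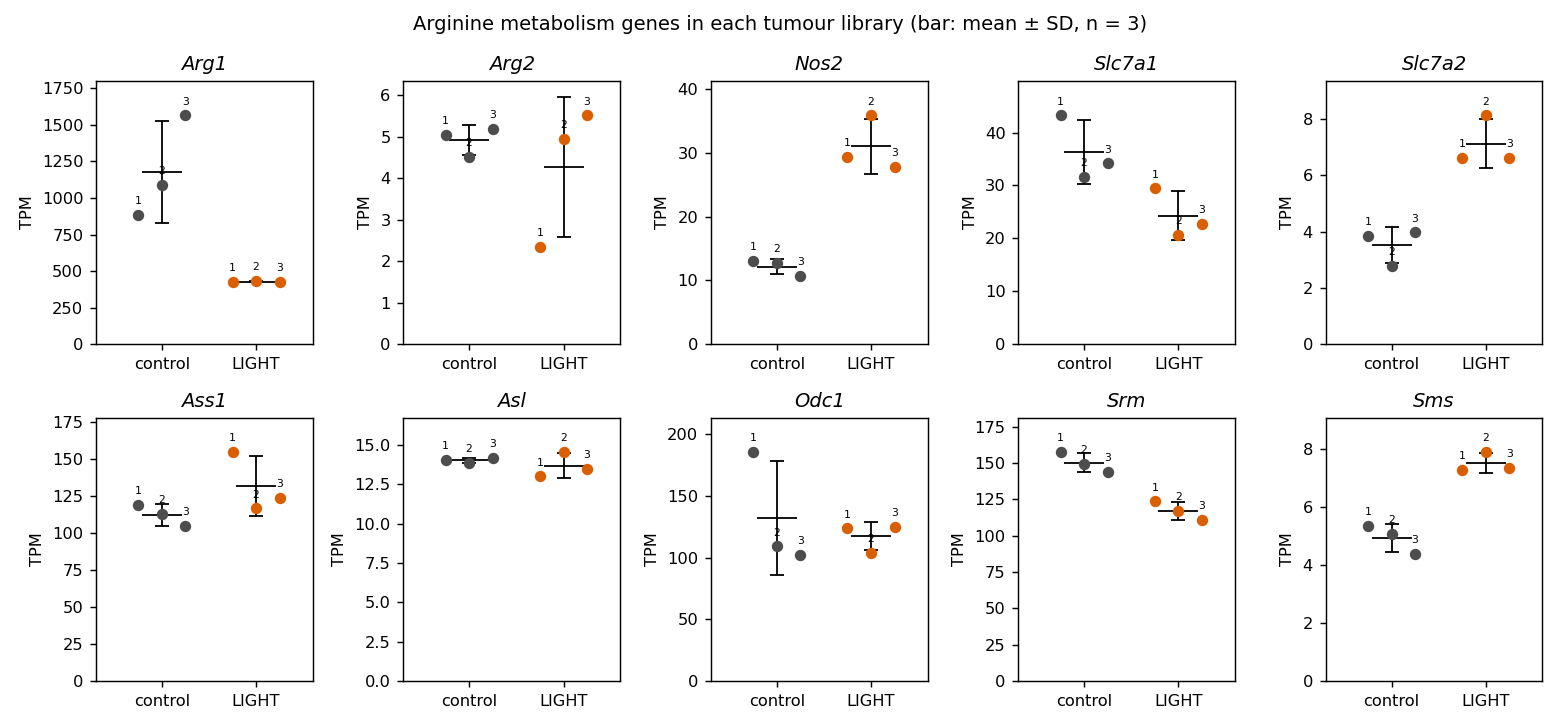
TPM of each of the 10 genes (vertical axis, starting at 0) in the control and LIGHT libraries, with points numbered by replicate and bars for mean and SD (n = 3). The groups are apart in Arg1, Nos2, Slc7a1, Slc7a2, Srm and Sms and overlap in Arg2, Ass1, Asl and Odc1.

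Arg1, the cytosolic arginase, was the most abundant of the 10 genes in every library and had the largest change. It was at 886, 1088 and 1565 TPM in the control libraries and at 424, 432 and 424 TPM in the LIGHT libraries. Every LIGHT value was below the lowest control value, and the control libraries were far more spread out (coefficient of variation 29.6%) than the LIGHT libraries (1.03%). The mean went from 1180 ± 349 to 427 ± 4.40 TPM (SD, n = 3 each), a 2.77-fold fall (log2 fold change -1.42, SE 0.19, limma adjusted p = 0.00314). Ordered by log2 fold change, it was the fall at position 41 of the 13167 tested genes. In the ranking of all listed genes by TPM, Arg1 held positions 116 to 173 in control and 323 to 336 in LIGHT libraries. All 10 genes are protein coding in RefSeq, and Arg1 occupies bases 24915207 to 24927470 of chromosome 10 (build GRCm38.p6, as for the positions that follow).

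Arg2, the mitochondrial arginase on chromosome 12 (79130788 to 79156301), was expressed at a small fraction of the level of Arg1. It was listed at 5.05, 4.51 and 5.19 TPM in control and 2.35, 4.95 and 5.52 TPM in LIGHT libraries. The low value belonged to LIGHT replicate 1, and the other LIGHT libraries fell within or just above the control values. Its log2 fold change was -0.22 with a 95% interval from -0.78 to 0.33 (limma adjusted p = 0.541), and without LIGHT replicate 1 it was 0.08. Arg1 made up 98.7% to 99.7% of the summed arginase TPM in all 6 libraries.

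Nos2, on chromosome 11 from 78920787 to 78960226, rose. Its values were 13.0, 12.7 and 10.8 TPM in control and 29.4, 35.9 and 27.8 TPM in LIGHT libraries. The lowest LIGHT library was above the highest control library, and the mean was 2.55-fold higher (log2 fold change 1.28, SE 0.12, limma adjusted p = 0.00124). That placed it at position 180 of the 13167 tested genes ordered from the largest rise. Nos2 stayed far below Arg1 in absolute level in both groups. The library with the highest Arg1, control replicate 3, also had the lowest Nos2. Within the LIGHT group, by contrast, replicate 2 had the highest values of both genes (432 and 35.9 TPM).

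The Arg1 to Nos2 ratio within a library does not depend on how libraries are scaled to each other. It was 68.2, 85.4 and 145 in the control libraries and 14.4, 12.0 and 15.3 in the LIGHT libraries. Arginase transcripts thus exceeded those of the inducible synthase in every library, and the lowest control ratio was above the highest LIGHT ratio. Both genes were already apart in opposite directions, so the ratio had to separate and the permutation p below could only be its smallest. The mean ratio was 99.7 ± 40.6 in control and 13.9 ± 1.68 in LIGHT tumours (SD, n = 3 each), 7.17-fold lower in the latter. On the log2 scale the LIGHT minus control difference was -2.77, and an exact two-sided permutation test gave p = 0.1, the smallest that 20 assignments allow. Leaving out any 1 library kept this difference between -3.01 and -2.46. Adding Arg2 to the numerator gave -2.77 as well.

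**Figure D2:**
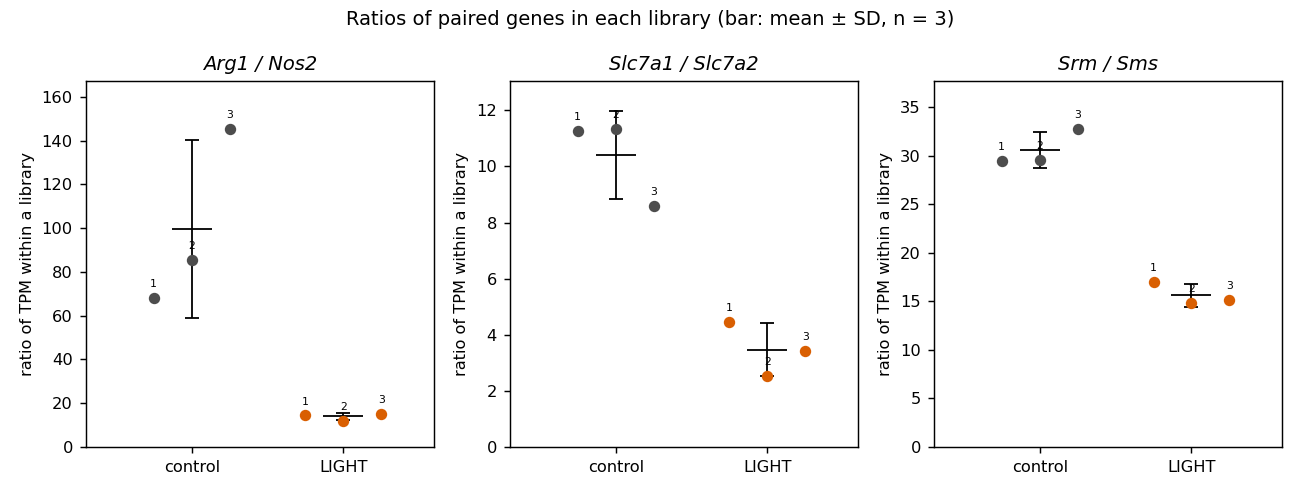
Ratio of the TPM of 2 genes within each library (vertical axes start at 0) for Arg1 to Nos2, Slc7a1 to Slc7a2 and Srm to Sms, with points numbered by replicate and bars for mean and SD (n = 3). In each panel the first gene fell and the second rose without overlap, so the 3 LIGHT libraries had to lie below the 3 control libraries. For Arg1 to Nos2 the LIGHT libraries lie between 12.0 and 15.3 against 68.2 to 145.

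Part of the macrophage marker list also changed. Of 10 macrophage markers 5 rose (Csf1r, Lyz2, C1qa, C1qb and C1qc) and 0 fell, against 17.7% and 5.41% of all tested genes. The median log2 fold change of the markers was 0.56 against 0.09 over all tested genes. Their summed level was 804 to 908 TPM in control and 1369 to 1851 TPM in LIGHT libraries. Per TPM of summed macrophage markers, Arg1 was 1.10, 1.20 and 1.73 in control and 0.246, 0.233 and 0.310 in LIGHT libraries. Nos2, as a percentage of the same sum, was 1.61, 1.40 and 1.19 in control and 1.70, 1.94 and 2.03 in LIGHT libraries. Arg1 was lower and the marker sum higher in every LIGHT library, so their quotient had to separate the groups and is no check on the fall. For Nos2 the groups also stayed apart relative to these markers, with a mean 1.35-fold higher. Which cells the Arg1 and Nos2 transcripts came from was not tested. With the mean of the macrophage markers as a covariate the calls of both genes were lost while their signs were kept, with log2 fold changes of -2.02 for Arg1 (SE 0.48, limma adjusted p = 0.169) and 1.02 for Nos2 (SE 0.35, limma adjusted p = 0.32). In that fit 13 of all tested genes rose and 4 fell.

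Marker lists of other cell types were read in the same way, against the 17.7% of all tested genes that rose and the 5.41% that fell. Of 8 neutrophil markers 6 were tested and 0 passed, with summed levels of 1381 to 1777 TPM in control and 429 to 2968 TPM in LIGHT libraries. S100a8 and S100a9 made up most of that sum and were highest in LIGHT replicate 1 (1793 and 1146 TPM) and lowest in LIGHT replicate 2 (105 and 253 TPM), whereas Csf3r, Cxcr2, Retnlg, Mmp8 and Mmp9 were lower in the former than in the latter. The defining surface marker Ly6g, too low to be tested, was at 0 in LIGHT replicate 1 and at 0.11 to 0.71 TPM in the other libraries. The part of neutrophil content in the fall of Arg1 was not tested. Of 8 basal keratinocyte markers 1 fell, Krt6a, and their sum was 26341 to 31718 TPM in control and 18043 to 26037 TPM in LIGHT libraries, without overlap. The markers did not move together: 3 of the 8 had a log2 fold change above 0 and the others below 0. Mean levels in control and LIGHT libraries were 8625 and 5695 TPM for Krt6a and 11421 and 8916 TPM for Krt14. Krt5 was level (4875 and 4906 TPM), and Epcam lay wholly above the control libraries (164 and 200 TPM). The part of keratinocyte content in the fall of Arg1 was not tested. T cell markers rose in 6 of 6 cases (summed 43.7 to 102 TPM in control, 166 to 209 TPM in LIGHT libraries).

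The importers moved in opposite directions. Slc7a1 encodes the widely expressed cationic amino acid transporter, and Slc7a2 a related carrier known for supplying arginine to activated macrophages. Slc7a1 was at 43.3, 31.7 and 34.2 TPM in control and 29.4, 20.6 and 22.8 TPM in LIGHT libraries. The highest LIGHT library, replicate 1, lay just under the lowest control library. The log2 fold change was -0.57 (SE 0.16, limma adjusted p = 0.0403). This call was close to the threshold and was lost when control replicate 1, 2 or 3, or replicate 2 or 3 of LIGHT, was left out (limma adjusted p = 0.0967, 0.0531, 0.0842, 0.109 and 0.116).

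Slc7a2 was at 3.84, 2.79 and 3.97 TPM in control and 6.62, 8.13 and 6.63 TPM in LIGHT libraries, a 2.02-fold rise (log2 fold change 0.85, SE 0.14, limma adjusted p = 0.0072). All LIGHT values were above all control values. The Slc7a1 to Slc7a2 ratio went from 11.3, 11.3 and 8.60 in control to 4.45, 2.53 and 3.43 in LIGHT libraries. Slc7a1 remained the more abundant importer in all 6 libraries. The genes lie on chromosome 5 (Slc7a1, 148327410 to 148399904) and chromosome 8 (Slc7a2, 40862341 to 40922070).

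Ass1 and Asl, which rebuild arginine from the citrulline that nitric oxide synthase releases, did not pass the test. Ass1, argininosuccinate synthase (chromosome 2, 31470270 to 31520670), was at 119, 113 and 105 TPM in control and 155, 117 and 124 TPM in LIGHT libraries. LIGHT replicate 1 stood above all the others, LIGHT replicate 2 lay within the control values, and the log2 fold change was 0.22 with a 95% interval from -0.06 to 0.49 (limma adjusted p = 0.221). Asl, argininosuccinate lyase (chromosome 5, 130011258 to 130024381), was the steadiest of the 10 genes, at 14.1, 13.9 and 14.2 TPM in control and 13.0, 14.6 and 13.5 TPM in LIGHT libraries. Its 95% interval ran from -0.24 to 0.17 on the log2 scale (limma adjusted p = 0.806). Per Nos2 transcript there was less Ass1 in the LIGHT libraries, with Ass1 to Nos2 ratios of 9.18, 8.87 and 9.73 in control and 5.27, 3.25 and 4.45 in LIGHT libraries. Nos2 rose and Ass1 was not called, so this ratio restates the rise of Nos2 and is no separate result on Ass1.

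In the polyamine branch, the entry enzyme and the later synthases differed. Odc1, ornithine decarboxylase (chromosome 12, 17544808 to 17551502), makes putrescine from ornithine. It was at 186, 109 and 102 TPM in control and 124, 104 and 125 TPM in LIGHT libraries. Control replicate 1 was the only high library. The log2 fold change was -0.12 (95% interval -0.62 to 0.38, limma adjusted p = 0.719), and it became 0.15 without control replicate 1.

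Srm, spermidine synthase, adds an aminopropyl group to putrescine. It fell from 158, 150 and 144 TPM in control to 124, 117 and 111 TPM in LIGHT libraries, with no overlap (log2 fold change -0.36, SE 0.08, limma adjusted p = 0.0175). The call was lost without control replicate 1 or 2 or LIGHT replicate 3 (limma adjusted p = 0.0522, 0.0551 and 0.0739), so that Arg1 alone was then called lower if control replicate 1 or 2 or LIGHT replicate 3 was left out.

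Sms, spermine synthase, adds the next aminopropyl group. It was at 5.34, 5.06 and 4.39 TPM in control and 7.27, 7.89 and 7.35 TPM in LIGHT libraries, a 1.52-fold rise (log2 fold change 0.52, SE 0.11, limma adjusted p = 0.0129). The Srm to Sms ratio was 29.5, 29.6 and 32.8 in control and 17.0, 14.8 and 15.1 in LIGHT libraries. Within each group this ratio varied little, and spermidine synthase remained the far more abundant transcript. Srm lies on chromosome 4 (148591513 to 148594619) and Sms on chromosome X (157443851 to 157492287).

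Promoter sequences in the RefSeq table (GRCm38.p6) were matched for 4 of the 10 genes, Ass1, Odc1, Slc7a1 and Sms. The 250 bases before the outermost listed start are shown for the 2 of these that were called, in opposite directions: Slc7a1, which fell (chr5:148399905-148400154, minus strand), and Sms, which rose (chrX:157492288-157492537, minus strand). Both are written 5′ to 3′, and capitals mark matches on either strand to a loose NF-kB pattern, GGG and CC with any 5 bases between them, and to the E-box CACGTG.
Slc7a1: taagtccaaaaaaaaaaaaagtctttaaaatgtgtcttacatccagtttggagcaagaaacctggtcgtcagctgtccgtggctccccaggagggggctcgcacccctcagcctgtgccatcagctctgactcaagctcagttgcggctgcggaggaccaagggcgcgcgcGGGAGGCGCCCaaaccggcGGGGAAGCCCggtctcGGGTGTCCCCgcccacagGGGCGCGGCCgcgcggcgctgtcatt
Sms: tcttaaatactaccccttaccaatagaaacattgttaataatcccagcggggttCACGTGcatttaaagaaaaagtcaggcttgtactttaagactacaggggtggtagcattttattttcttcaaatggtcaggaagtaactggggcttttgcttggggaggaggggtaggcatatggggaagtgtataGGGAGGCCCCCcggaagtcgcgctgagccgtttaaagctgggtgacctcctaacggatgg
Both windows hold the NF-kB pattern, in matches that partly overlap each other, and the Sms window also holds 1 E-box. The NF-kB pattern was present in 45.8% and the E-box in 6.02% of all 32851 promoter windows of this length. The patterns TTCNNNGAA (STAT), the same with 4 free bases (STAT6) and TTGCNNAA (C/EBP), also searched on both strands, had no match in these 2 windows and were in 7.02%, 5.85% and 9.56% of all windows. The RefSeq table lists a further, inner start for each gene: the window of Slc7a1 there (chr5:148392816-148393065) holds 1 STAT match and no other, and that of Sms (chrX:157491369-157491618) holds the NF-kB pattern only. A match is a run of letters and not a measured binding site.

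Set side by side, the 10 transcripts covered a wide range of levels. In the control tumours the order by mean TPM was Arg1 (1180), Srm (150), Odc1 (132), Ass1 (112), Slc7a1 (36.4), Asl (14.0), Nos2 (12.2), Sms (4.93), Arg2 (4.92) and Slc7a2 (3.53). Neighbours whose libraries overlapped were Srm with Odc1, Odc1 with Ass1, and Sms with Arg2. In the LIGHT tumours the order was Arg1 (427), Ass1 (132), Odc1 (117.4), Srm (117.1), Nos2 (31.0), Slc7a1 (24.3), Asl (13.7), Sms (7.50), Slc7a2 (7.13) and Arg2 (4.27). There Ass1, Odc1 and Srm overlapped as neighbours, as did Nos2 with Slc7a1 and Sms with Slc7a2. Nos2 thus moved from below Asl to above Slc7a1 by mean, and Srm from above to below both Odc1 and Ass1. The summed TPM of the 10 genes was 1433 to 1989 in control and 861 to 914 in LIGHT libraries, while without Arg1 it was 424 to 547 and 430 to 490, so the groups were apart only when Arg1 was counted.

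Other genes of arginine metabolism were read from 5 lists. Of their 56 genes 55 were found and 45 were tested: 5 rose and 4 fell, with a median log2 fold change of 0.05 against 0.09 over all tested genes. Over all tested genes 17.7% rose and 5.41% fell. The numbers called in the lists are small, and whether they differ from these shares was not tested. The urea cycle enzymes Cps1 and Otc were listed at 0 TPM or at most 0.02 TPM in every library.

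Among 8 tested transport genes 1 rose and 1 fell. Slc6a14, a concentrating importer of neutral and cationic amino acids, fell from 56.3, 43.3 and 57.7 TPM to 22.9, 23.5 and 21.1 TPM (log2 fold change -1.18, limma adjusted p = 0.00164). After Arg1 this was the largest fall among the 10 genes and these 5 lists. Slc7a7, the light chain of a cationic amino acid exporter, rose from a mean of 1.89 to 3.99 TPM, a log2 change of 0.78 (limma adjusted p = 0.0108). Its heavy chain Slc3a2 (130 and 151 TPM) and the mitochondrial ornithine carrier Slc25a15 (6.54 and 5.40 TPM) did not pass (limma adjusted p = 0.0796 and 0.159).

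Among 4 tested enzymes of the second list 2 rose, and both make creatine, another product of arginine. Gatm, which joins arginine and glycine and releases ornithine, was at 6.78, 8.19 and 10.5 TPM in control and 16.8, 20.2 and 15.7 TPM in LIGHT libraries (log2 fold change 0.98, limma adjusted p = 0.00673). Gamt, which completes creatine, rose from a mean of 2.61 to 6.18 TPM, a log2 change of 1.00 (limma adjusted p = 0.00239). Skeletal muscle markers, from a tissue that uses creatine, had summed levels of 2540 to 4524 TPM in control and 3876 to 6583 TPM in LIGHT libraries, and 0 of 10 passed. All 10 markers nevertheless had a log2 fold change above 0, with a median of 0.81 against 0.09 over all tested genes. With their mean as a covariate the call of Gamt held and that of Gatm did not. In that fit 607 of all tested genes rose and 91 fell, against 2325 and 712 without the covariate. The part of muscle content in the rises of Gatm and Gamt was not tested. Ddah1 and Ddah2, which clear methylated arginines that inhibit nitric oxide synthases, were not called.

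Among 8 tested nitric oxide synthase partners 1 fell and 0 rose. Gch1, the first enzyme of tetrahydrobiopterin, a cofactor that Nos2 needs, was at 8.42, 7.46 and 8.51 TPM in control and 6.34, 6.34 and 6.08 TPM in LIGHT libraries (log2 fold change -0.33, limma adjusted p = 0.0449). Its values lay below the control values in the same libraries in which Nos2 was higher, but the call was lost without any 1 of the 6 libraries. The neuronal synthase Nos1 (1.09 and 1.75 TPM), Pts of the same cofactor pathway (36.7 and 41.9 TPM) and Nosip, a synthase-binding protein (42.3 and 47.0 TPM), did not pass. The endothelial synthase Nos3 was at 1.96 and 2.50 TPM and did not pass, and was named after its values were seen.

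In the ornithine to proline list 1 of 9 tested genes rose: Pycr1, which makes proline in mitochondria, from a mean of 4.34 to 6.90 TPM, a log2 change of 0.56 (limma adjusted p = 0.0117). That call was lost with quantile normalization and with the skeletal muscle or macrophage covariate. P4ha2 (18.7 and 25.2 TPM), a collagen prolyl hydroxylase, Aldh4a1 (10.7 and 12.5 TPM), of proline breakdown, and Aldh18a1 (21.7 and 25.5 TPM), of proline synthesis, did not pass.

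Of 16 tested polyamine genes outside the set 1 rose and 2 fell. Azin2, an antizyme inhibitor that protects ornithine decarboxylase, rose from a mean of 4.39 to 8.52 TPM, a log2 change of 0.81 (limma adjusted p = 0.0084). Smox, spermine oxidase, which turns spermine back into spermidine, fell from a mean of 83.5 to 61.5 TPM, a log2 change of -0.43 (limma adjusted p = 0.0136). That call was lost without control replicate 2 or LIGHT replicate 3. Amd1, which supplies the aminopropyl groups used by Srm and Sms, fell from a mean of 77.1 to 60.1 TPM, a log2 change of -0.35 (limma adjusted p = 0.0474). It missed the threshold when any 1 library other than LIGHT replicate 1 was left out, and a near-identical copy, Amd2, can share its reads. Atp13a2, a lysosomal polyamine exporter, was at 11.8 and 15.3 TPM and did not pass.

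**Figure D3:**
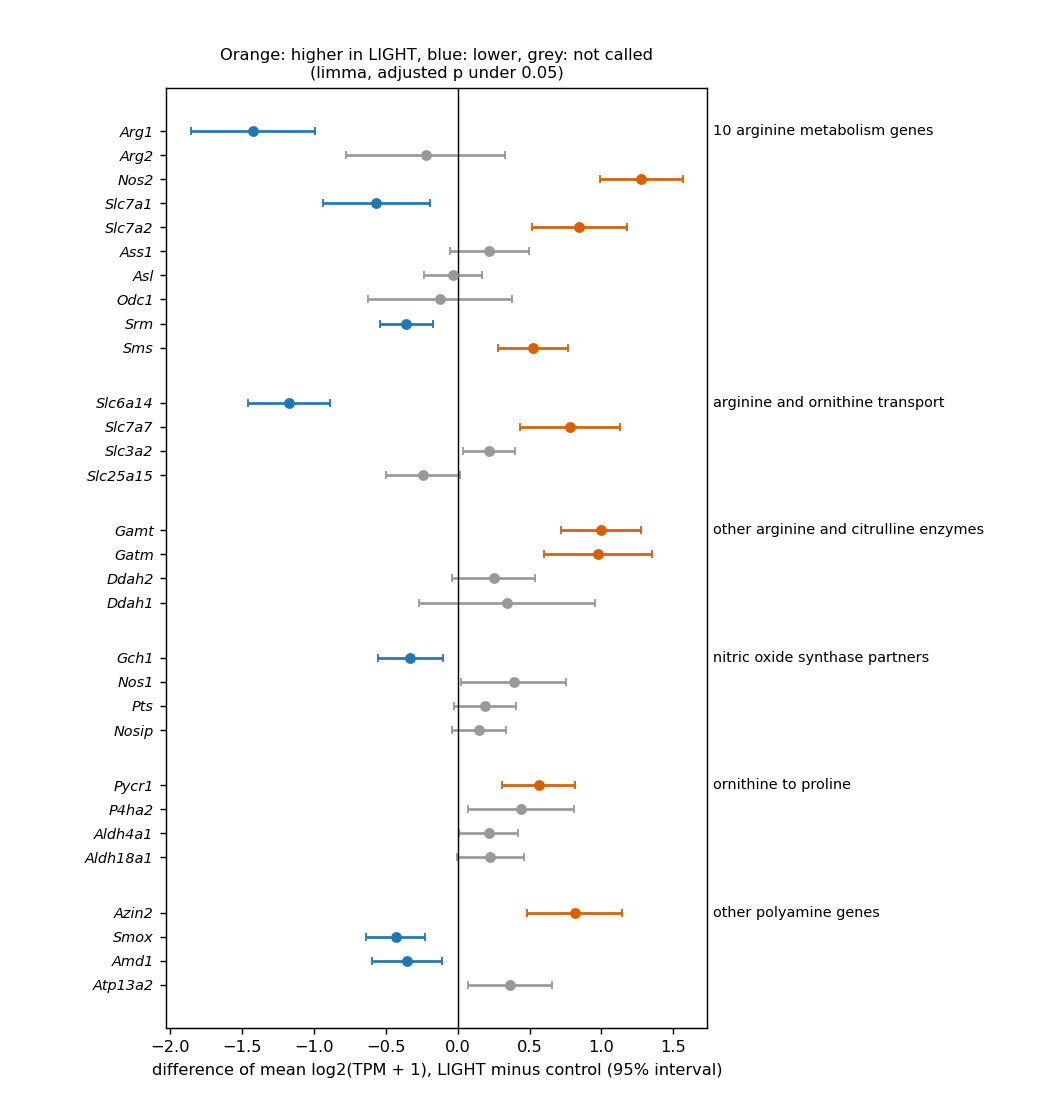
Difference of mean log2(TPM + 1), LIGHT minus control, with 95% intervals (horizontal axis) for the 10 genes and for up to 4 genes of each of 5 other arginine lists, those of smallest p. Orange points rose, blue points fell and grey points did not pass, and Arg1 at -1.42 and Nos2 at 1.28 are the extremes.

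Signals known to induce Nos2 or Arg1 were described from 2 further lists. Of 10 tested inducers of Nos2, 5 rose and 1 fell, against 17.7% and 5.41% of all tested genes. Interferon gamma (Ifng) was at 3.37, 8.47 and 4.46 TPM in control and 21.5, 14.4 and 11.5 TPM in LIGHT libraries (log2 fold change 1.42, limma adjusted p = 0.017). Its receptor chains Ifngr1 (43.7 to 68.4 TPM) and Ifngr2 (35.6 to 49.6 TPM) also rose. The call of Ifng was lost without control replicate 3. Tlr4, the gene that fell, was named after its values were seen and lost its call in 12 of 16 other settings.

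Where 17.7% of all tested genes rose and 5.41% fell, 3 of 8 tested inducers of Arg1 rose and 0 fell. These were the interleukin receptor chain Il10ra (7.25 to 13.4 TPM), Tgfb1 (56.8 to 81.7 TPM) and Il13, a cytokine known to induce arginase. Il13 was at 0.89, 0.61 and 0.61 TPM in control and 1.32, 2.41 and 2.44 TPM in LIGHT libraries. All control values were under 1 TPM, and Il13 entered the test by its LIGHT values alone, which fixed its direction. The calls of Tgfb1 and Il13 were lost without control replicate 2, and that of Il13 also without control replicate 3 or LIGHT replicate 2 or 3 and with quantile normalization. The receptor chain Il4ra was at 30.6 and 41.3 TPM and did not pass. 

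Other macrophage activation genes did not all move with Arg1 or Nos2. Of all tested genes, 17.7% rose and 5.41% fell. Of 7 tested genes of alternative activation, the state for which Arg1 is a standard marker, 1 rose and 0 fell. Among these 7 genes 6 had a log2 fold change above 0, with a median of 0.68 against 0.09 over all tested genes. The lectin Mgl2 was at 1.02 to 1.66 TPM in control and 3.11, 8.65 and 6.26 TPM in LIGHT libraries (log2 fold change 1.47, limma adjusted p = 0.0122). Ccl24 (29.0 and 90.2 TPM), Clec10a (1.99 and 4.23 TPM) and Retnla (6.98 and 30.9 TPM) had higher means in LIGHT libraries but overlapped between groups. Retnla ranged from 0.29 to 83.0 TPM, the highest value being in LIGHT replicate 2. Of 7 tested genes of classical activation, the state for which Nos2 is a marker, 5 rose and 0 fell. The median log2 fold change of this list was 0.82. The rises were led by the chemokines Cxcl9 (log2 fold change 2.37) and Cxcl10 (2.01). The costimulatory molecules Cd40 (3.39 to 7.19 TPM) and Cd86 (3.67 to 7.29 TPM) followed. The 2 that did not pass had lower means in LIGHT than in control libraries, with overlap. They were Ptgs2 (17.3 to 5.42 TPM) and Il6 (7.25 to 3.65 TPM), both named after their values were seen.

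The 10186 other tested genes with a mean of at least 5 TPM were compared with Arg1 and Nos2 by profile. The measure was the root mean square difference of centred log2(TPM + 1) over the 6 libraries, in which a smaller value is more alike. Nearest to Arg1 were Spns2, a sphingosine-1-phosphate exporter (0.14), Klk8, an epidermal kallikrein protease (0.18), Chac1, which degrades glutathione (0.18), S100a7a, an epidermal S100 protein (0.18), and Gsto1, a glutathione transferase (0.19). Like Arg1, Spns2 was highest in control replicate 3 (278 TPM) and nearly level in the LIGHT libraries (95.3, 99.5 and 99.1 TPM). Nearest to Nos2 were Eci1, an enzyme of fatty acid oxidation (0.05), AI467606 (0.10), the kinase Matk (0.10), Bcl2a1d, a survival gene with near-identical copies (0.12), and Tnfrsf9, a costimulatory receptor of T cells (0.12). All 6 points share the 2 groups, so genes that differ between groups by a like amount score as alike.

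The calls of the 10 genes were least stable for Slc7a1 and Srm. Under 17 other settings Arg1 and Nos2 each kept their call in 16, Slc7a2 in 15, Sms in 14, Srm in 11 and Slc7a1 in 8. None of these 6 changed sign, but many of the settings could not have changed it. The groups did not overlap in these genes, so leaving out a library or changing the pseudocount keeps the sign. The filters, the replicate block and the fit without a trend leave the log2 fold change as it was. The setting that ended the calls of Arg1 and Nos2 was the macrophage marker covariate described above. With trimmed-mean scaling 1637 genes rose and 2005 fell, against 2325 and 712 with the TPM as deposited, and the same 3 of the 10 genes rose and the same 3 fell.

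**Figure D4:**
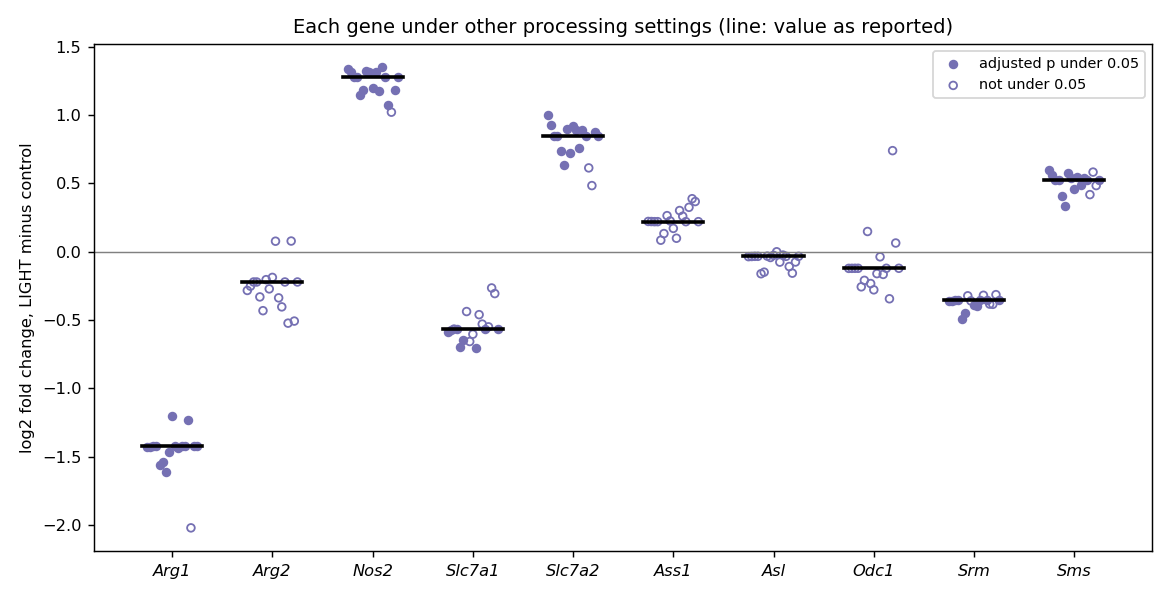
Log2 fold change of each of the 10 genes (vertical axis, LIGHT minus control) as reported (black line) and under 17 other settings (points, filled where the adjusted p was under 0.05). Arg1, Nos2, Slc7a1, Slc7a2, Srm and Sms stay on 1 side of 0, while Arg2 and Odc1 cross it. Where the groups did not overlap, many of the settings could not move a gene across 0.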

How the data were processed

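Per the labels' protocols, the authors removed ribosomal RNA from total tumour RNA before sequencing. HISAT, Bowtie2 and GRCm38.p6 appear, without roles or versions, among the submitters' processing notes; the sources used here do not say how TPM was computed or with which annotation. The authors deposited gene-level TPM, with 1 column for each library. Every column has the same total to within rounding, so reads per library cannot be recovered and counting intervals were not computed.

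Genes reaching 1 TPM in 3 or more libraries (13167) were fitted on log2(TPM + 1) with limma 3.58.1 (R 4.3.3; mean-variance trend, two-sided, Benjamini-Hochberg over all genes tested, threshold 0.05). Intervals are 95% limma intervals. The Arg1 to Nos2 ratio had an exact permutation test. Library columns were mapped by the description label; no 2 libraries were identical. The members and lists were chosen with earlier results of these data known. Genes named are the 10 members, up to 4 genes of each list by smallest unadjusted p, and the 5 profiles most like Arg1 and Nos2. The values of 1 gene that this rule names are not reported here. The fit was tested on simulated data. Positions are from RefSeq GRCm38.p6. Alternatives were pseudocounts of 0.1 and 0.5, no filter, a filter at 5 TPM, trimmed-mean (30% and 5% trimmed) and quantile scaling, each library left out, a replicate block, 3 marker covariates and no trend. Figures used matplotlib 3.10.9.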

Additional observations from a re-analysis of the deposited data

How the results depend on the processing

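Across the 17 other settings (10 genes) and 9 for the Arg1 to Nos2 ratio, 152 of 179 values kept their direction and their side of the threshold or stayed within 1 SD, 22 lost their call and 5 changed sign. The changes of sign were in genes that were not called: Arg2 at 0.0759 without LIGHT replicate 1 and 0.0771 with the macrophage covariate, and Odc1 at 0.15 without control replicate 1, 0.74 with the macrophage covariate and 0.0627 with the red blood cell covariate. Over the left-out libraries Arg2 ranged from -0.40 to 0.0759 and Odc1 from -0.28 to 0.15. With each library left out in turn, 3 of the 10 genes were called higher throughout and 1 to 3 lower; of all tested genes 1264 to 2027 were higher and 325 to 791 lower; of the 9 pathway and regulator lists (77 tested genes, 19 higher and 5 lower as reported) 15 to 19 were higher and 1 to 4 lower; and the log2 difference of the Arg1 to Nos2 ratio was -3.01 to -2.46. Trimmed-mean scaling gave 2005 lower genes and 8 lower list genes, and quantile normalization 1410 higher and 1813 lower genes; over all tested genes the median was 0.09 on the log2 scale as deposited and -0.04 under either scaling. Without a filter 2 list genes were lower. With the skeletal muscle covariate 1 of the 10 genes was higher and 1 lower, 607 and 91 of all genes, and 7 and 1 of the list genes. With the macrophage covariate these were 0 and 0, 13 and 4, and 0 and 0, and Arg1 (-2.02) and Nos2 (1.02) lost their calls. With the red blood cell covariate 1 of the 10 was lower, 976 and 207 of all genes were higher and lower, and 11 and 2 of the list genes. The cause of these changes was not tested. The replicate numbers were not taken as pairing: deviations of same-numbered libraries correlated at 0.37, 0.24 and 0.01 across genes, and not every library correlated best with its own number. With the replicate block 3 of the 10 genes were higher and 3 lower, 2325 and 907 of all genes and 21 and 3 of the list genes. The log2 difference of the ratio was -2.77, which a block with 1 library of each group cannot change. Depth is unknown, so the precision of low values such as Arg2, Sms and Slc7a2 cannot be stated beyond the spread of 3 libraries.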
